A study of Mus musculus with 8 samples.

Results

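The genes described here build and control the actin cytoskeleton, or are known targets of serum response factor (SRF) or of the Hippo pathway coactivator YAP. They are the rows of the deposited table whose gene symbol is one of 34 names: the actins Acta2, Actg2, Actb and Actg1, their binding, cross-linking and adhesion proteins, SRF with its coactivators Mkl1 and Mkl2, and the YAP targets Ctgf, Cyr61, Ankrd1, Amotl2 and Thbs1. All 34 were found, of 22798 genes in the table, and all 34 passed the filter on low values. The samples are 8 RNA-seq libraries of 3T3-L1 cells, a line of fibroblast-like mouse cells of the Swiss albino strain that turns into fat cells under hormones, with 2 libraries for each of 4 stages. Proliferation is exponential growth in medium with serum, and quiescence is 48 hours at confluence, both with no cocktail. Clonal expansion is 10 hours and differentiation 6 days after the cocktail of insulin (5 µg/µl), dexamethasone (1 µM) and isobutylmethylxanthine (0.25 mM), which was given for 48 hours and followed by insulin alone. The labels do not say whether the 2 libraries of a stage came from separate cultures. The p-values therefore refer to library-to-library spread, perhaps a technical one, within this 1 cell line.

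Globular actin holds the coactivators Mkl1 and Mkl2, also called MRTF-A and MRTF-B, in the cytoplasm, and its assembly into filaments frees them to bind SRF at the promoters of actin and contractile genes. YAP is kept in the cytoplasm by the Hippo kinases in dense or rounded cells and enters the nucleus of spread cells, where it binds TEAD factors. Preadipocytes are spread cells with stress fibres, bundles of filamentous actin and myosin, and fat cells round up and keep a thin cortical actin layer.

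Levels are given as pseudo-counts, the reads of a gene after the authors scaled the libraries to each other, for experiments 1 and 2 of a stage in that order. Cells at the stage of clonal expansion are called expanding cells. A log2 fold change (log2FC) is of pseudo-count + 1 and stands with its standard error. The words "rose" and "fell" are used where limma's test, adjusted over 14647 genes, gave a p under 0.05. The pseudo-counts of a library summed to 122413485 to 151529060. Of that total the members held 2.33% and 2.62% in proliferating cells, 1.68% and 1.67% in quiescent cells, 1.36% and 1.31% in expanding cells and 0.482% and 0.52% in differentiated cells. In these bulk samples, fewer cells of a type and less RNA per cell cannot be told apart.

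Every one of the 34 genes fell between proliferation and differentiation, where 33.3% of all genes tested fell, 34.5% rose and 67.8% were called in either direction. Their median log2FC was -2.13, against 0.0204 for all genes, and the values ran from -0.55 for Mkl2 to -7.02 for Ankrd1. The path between these ends had 3 steps. From proliferation to quiescence 24 genes fell and 1 rose, where 11.8% of all genes fell and 11.9% rose. At clonal expansion 16 fell and 9 rose, where 34.4% fell and 34.4% rose. From clonal expansion to differentiation 29 fell and 2 rose, where 36.2% fell and 36.8% rose. Called in either direction were 25, 25 and 31 of the 34 in these steps, against 23.7%, 68.8% and 73% of all genes. The comparisons share libraries and are not independent of each other, and the members were chosen with earlier results of these data known.

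The mean was highest at proliferation for 24 genes, at clonal expansion for 8 and at quiescence for 2, and at differentiation for none. It was lowest at differentiation for 30 genes and at clonal expansion for the other 4, Cnn1, Lmod1, Vcl and Pdlim5. The 8 genes with their highest mean at clonal expansion were Tagln2, Tpm4, Cfl1, Pfn1, Actn1, Actn4, Mkl1 and Amotl2. For Cfl1, Pfn1, Mkl1 and Amotl2 the libraries of that stage overlapped those of proliferation. Their means at proliferation and clonal expansion were close, from 41497.8 and 42128.8 for Amotl2 to 164064 and 174362 for Cfl1. The totals of pseudo-counts were larger at clonal expansion (151529060 and 146570940) than at proliferation (122413485 and 123940067). Which stage was highest with equal totals was not tested.

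**Figure D1:**
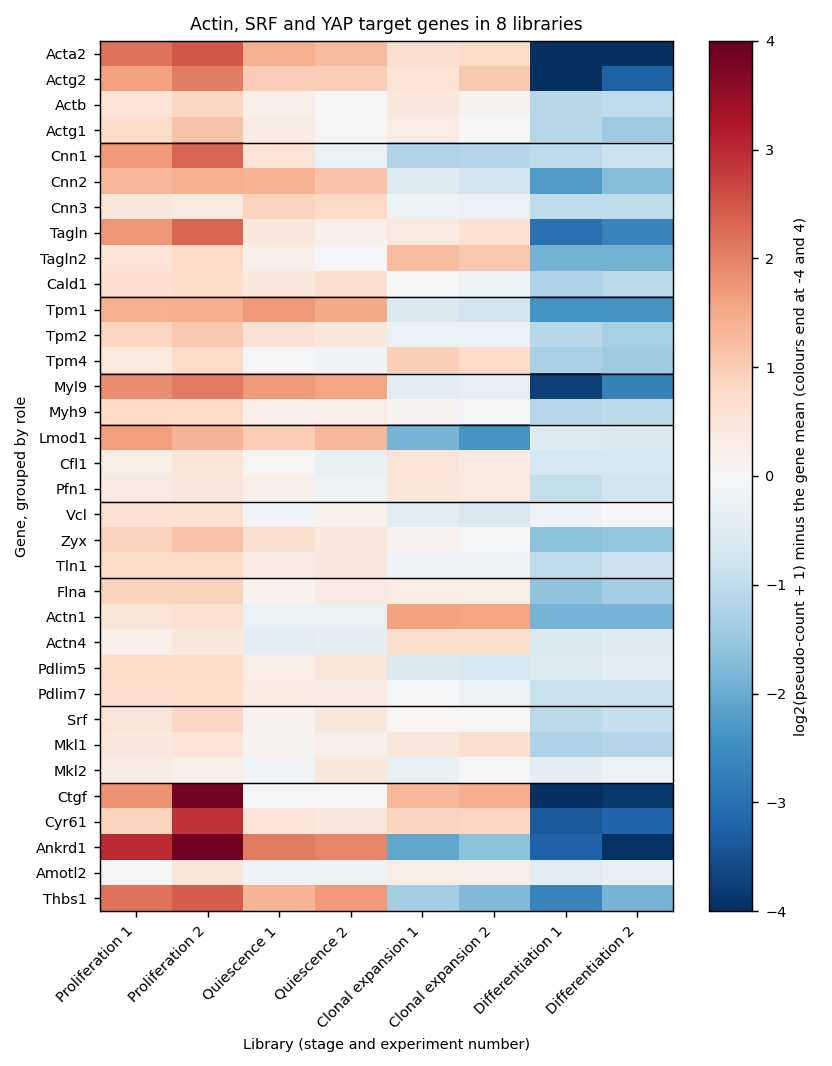
Heat map of the 34 genes (rows, grouped by role) in the 8 libraries (columns), coloured by log2(pseudo-count + 1) minus the mean of the gene over the 8 libraries. Red is above and blue below that mean; the differentiated libraries are bluest for most genes, and Actn1, Tagln2 and Tpm4 are reddest at clonal expansion.

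The scaling of the libraries bears on the clonal expansion and differentiation counts. With each library brought to the same total, the median of all genes moved by -0.239 between quiescence and clonal expansion and by -0.254 between proliferation and differentiation. The share of rises among all calls went from 50% to 37.4% and from 50.9% to 36.6%. The number of members that rose at clonal expansion was then 5 instead of 9, and all 34 were again called lower at differentiation than at proliferation.

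The libraries of a stage differed in ways that touch these genes. In proliferation experiment 2, 30 of 34 members were higher than in experiment 1, where 49.5% of all genes were, with a median log2 difference of 0.21 and the largest differences in Ctgf (2.02) and Cyr61 (1.98). Immediate early genes, which serum switches on through SRF within minutes, also stood higher in that library. Fos was at 1176 and 19843, Egr1 at 16082 and 80363 and Ier2 at 7248 and 48574 in experiments 1 and 2, genes chosen after their values were seen. In quiescence experiment 2, genes with short transcripts were lower and genes with long ones higher than in experiment 1, by medians of -0.27 and 0.26 on the log2 scale for the shortest and the longest of 5 equal classes of all genes. The members followed this order, with a rank correlation of 0.71 between the log2 difference and transcript length over 34 genes of the same 2 libraries. Pfn1, with the shortest transcript, was at -0.45 and Flna, with the longest, at 0.24. At proliferation the members' rank correlation was -0.52, with medians of all genes near 0 in both length classes. The part of these library differences in the results was not tested.

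**Figure D2:**
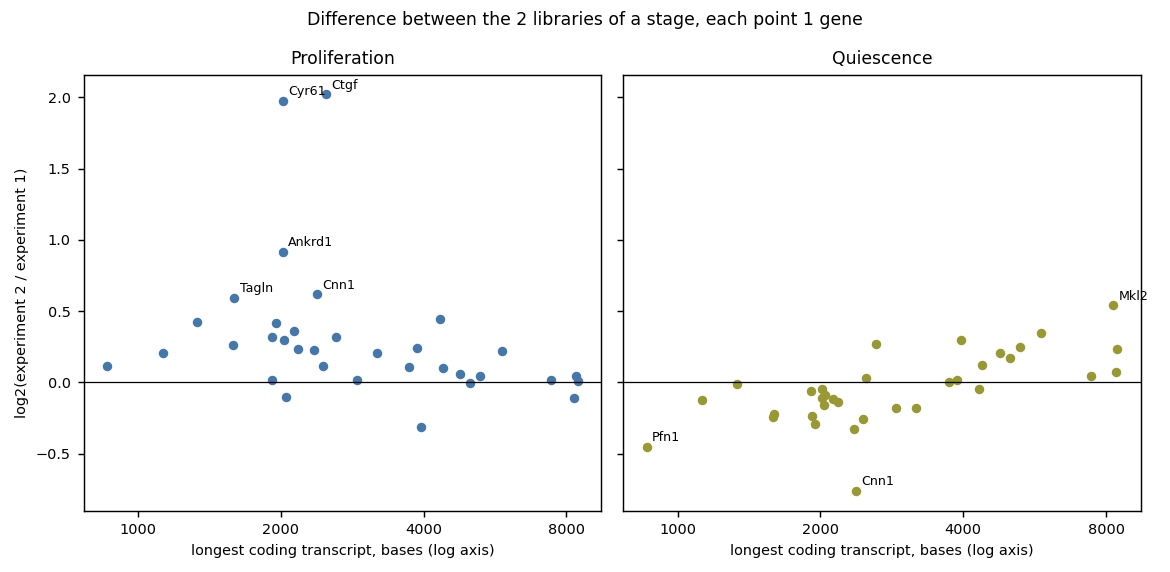
Log2 ratio of experiment 2 to experiment 1 (vertical axis) for each of the 34 genes against the length of its longest coding transcript in bases (horizontal log axis), at proliferation (left) and quiescence (right). Ctgf and Cyr61 stand near 2 at proliferation, and at quiescence the points rise from below 0 at the short transcripts to above 0 at the long ones.

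Quiescent cells held less mRNA of most of the 34 genes than proliferating ones, with the largest falls in the smooth muscle type genes Tagln and Cnn1 and in the YAP target Ctgf. All 4 actins, the 3 adhesion genes Vcl, Zyx and Tln1 and all 5 cross-linker genes were among the 24 that fell, and the median log2FC of the 34 was -0.504 against -0.00699 for all genes. Cnn3, the acidic calponin of non-muscle cells, was the 1 gene that rose, with 53609 and 49955 at proliferation and 71590.5 and 67291 at quiescence (log2FC 0.42 ± 0.097, adjusted p = 0.0117). Tpm1, the main tropomyosin of stress fibres, was at 137921 and 139337 and then 166578 and 146791 and was not called (adjusted p = 0.29). Of the 24 falls, 20 were under 2-fold, and many calls rested on proliferation experiment 2. Without that library 5 of the 24 falls were called, those of Cnn1, Tagln, Actn1, Actn4 and Ctgf, and the rise of Cnn3 was not (0.37). The other 19 genes kept a negative log2FC there, from -0.20 for Amotl2 to -0.95 for Ankrd1. Among them were Acta2 (-0.83), Actg2 (-0.62), Actg1 (-0.54), Tagln2 (-0.46), Tpm4 (-0.49), Myh9 (-0.51), Cfl1 (-0.37), Vcl (-0.56) and Thbs1 (-0.66). Without quiescence 1 or quiescence 2, 17 and 16 of the 24 falls were called.

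**Figure D3:**
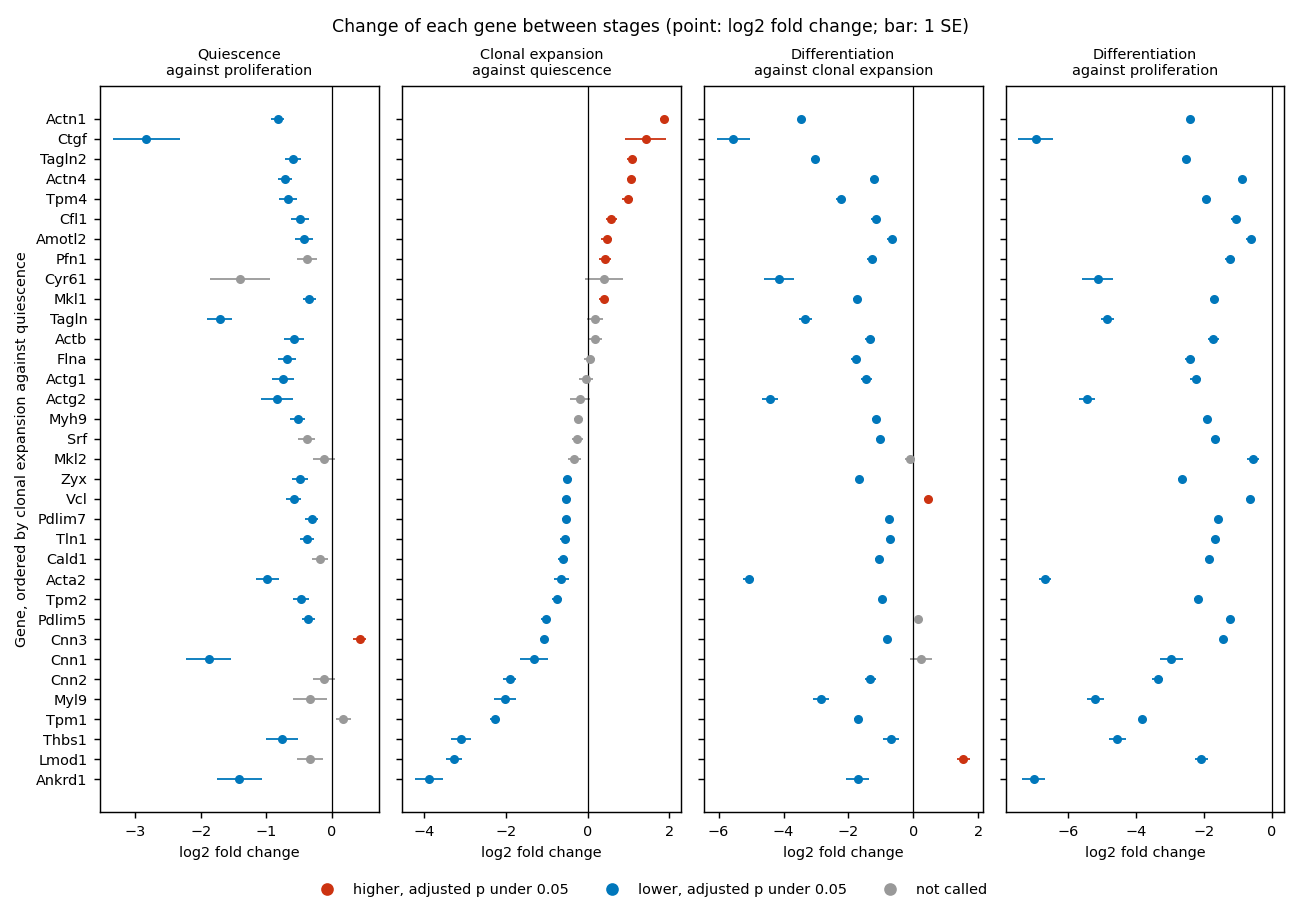
Log2 fold change of each of the 34 genes (points, with bars of 1 standard error) in the 4 comparisons, ordered by the change from quiescence to clonal expansion, in red where called higher, in blue where called lower and in grey where not called. In the second panel the genes spread to both sides of 0, from log2FC -3.90 for Ankrd1 to log2FC 1.87 for Actn1, and in the fourth panel all lie below 0.

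The 4 actins parted by type. Acta2, smooth muscle alpha-actin and a mark of contractile fibroblasts (gene ID 11475, chromosome 19, 34315581 to 34329826 in mm9), was at 186619 and 229035 in proliferating, 110560.0 and 98994 in quiescent, 63633 and 70349 in expanding and 1639 and 2416 in differentiated cells. It was lower at each stage than at the one before with no overlap of the libraries, and fell 104-fold from proliferation to differentiation (log2FC -6.70 ± 0.18, adjusted p = 1.52e-09). Actg2, the gamma-actin of visceral smooth muscle, was at 6839.7 and 9162 in proliferating, 4451 and 4419 in quiescent, 3227 and 4665 in expanding and 140.3 and 231 in differentiated cells. Its libraries overlapped between quiescence and clonal expansion, and it fell 21.4-fold after that stage (log2FC -4.42 ± 0.25, adjusted p = 1.37e-07). Actb, the main non-muscle actin, was at 361981 and 451574 in proliferating, 293884 and 250019 in quiescent, 335777 and 280588 in expanding and 118154 and 126053 in differentiated cells. It fell at quiescence (adjusted p = 0.0257, a call lost in 7 of 17 alternative settings, without proliferation 2 among them), overlapped between quiescence and clonal expansion, and fell 2.52-fold after it. Actg1, its non-muscle partner, was at 14972 and 19955 in proliferating, 11398 and 9307 in quiescent, 11012 and 9114 in expanding and 4030.5 and 3304 in differentiated cells. This gene fell at quiescence, overlapped between quiescence and clonal expansion, and fell 4.74-fold from first stage to last. Per 1000 bases of the longest coding transcript, the mean level of Actb was 211863 and that of Acta2 102126 at proliferation, and 63596 and 996 at differentiation. Actin genes share long stretches of coding sequence with each other and with pseudogenes, and how shared reads were counted is not given in the sources used here, so levels between actins are uncertain.

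Proteins that bind along the filament went different ways at clonal expansion. Tagln, transgelin or SM22, a smooth muscle marker and a textbook SRF target, was at 11462 and 17311 in proliferating, 4645 and 3971 in quiescent, 4517 and 5276 in expanding and 439.8 and 538 in differentiated cells. It fell 3.28-fold at quiescence, overlapped between quiescence and clonal expansion and fell 10.0-fold after it (log2FC -3.32 ± 0.19, adjusted p = 1.75e-07). Tagln2, its relative in non-muscle cells, was at 36719 and 44051 in proliferating, 29074 and 24542 in quiescent, 59642 and 54339.8 in expanding and 6941 and 6932 in differentiated cells. Its libraries at clonal expansion lay above those of every other stage, with a rise of 2.13-fold over quiescence (log2FC 1.09 ± 0.12, adjusted p = 2.81e-05) followed by a fall of 8.21-fold. Cnn1, the calponin of smooth muscle, was the lowest of the binding proteins at 156 and 240.2 in proliferating, 67.9 and 39.7 in quiescent, 20.1 and 20.3 in expanding and 22.4 and 25.9 in differentiated cells. It fell at quiescence and again at clonal expansion (log2FC -1.32 ± 0.34, adjusted p = 0.00568, -0.94 and not called without quiescence 1, -0.73 and not called with quantile normalization) and was not called after that. Cnn2, the calponin found in most cell types, was at 67002 and 72397 in proliferating, 69840.3 and 58382 in quiescent, 18449 and 15629 in expanding and 5698 and 8057 in differentiated cells. It was not called at quiescence (adjusted p = 0.625), then fell 3.76-fold and a further 2.51-fold. Cnn3, highest at quiescence, fell to 34371 and 32035 and then 19003 and 19035, at each step with no overlap. Cald1, caldesmon, which holds back myosin on the filament, was at 149333 and 155465 in proliferating, 124945 and 144127 in quiescent, 92403 and 83023 in expanding and 39548 and 44491 in differentiated cells, with falls at the last 2 steps (log2FC -0.62 and -1.06) and no call at quiescence (adjusted p = 0.305).

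Tropomyosins, which lie along the filament and set which myosins and severing proteins reach it, showed the same parting. Tpm1 was at 137921 and 139337 in proliferating, 166578 and 146791 in quiescent, 34526 and 29901 in expanding and 9663 and 9984 in differentiated cells. The libraries at clonal expansion lay far below those at quiescence, a fall of 4.87-fold (log2FC -2.28 ± 0.11, adjusted p = 2.17e-07), and differentiation brought 3.27-fold more. Tpm4, a short tropomyosin of non-muscle cells, was at 87368 and 112166 in proliferating, 64941 and 59903 in quiescent, 128658 and 116867 in expanding and 27337 and 24679.7 in differentiated cells. It fell at quiescence, rose 1.97-fold at clonal expansion (log2FC 0.98 ± 0.13, adjusted p = 0.000116) to a level above both proliferating libraries and fell 4.72-fold afterwards. Tpm2, found in muscle and in stress fibres, was at 14416 and 16964 in proliferating, 11809 and 10751 in quiescent, 6702 and 6625 in expanding and 3714 and 3188 in differentiated cells. It fell at each of the 3 steps, at quiescence with a call lost in 5 of 17 settings.

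Of the myosin II genes, Myl9, the regulatory light chain of smooth muscle and stress fibres, was at 14821 and 17122 in proliferating, 13216 and 12098 in quiescent, 2975 and 3230.0 in expanding and 300.3 and 616 in differentiated cells. It was not called at quiescence (adjusted p = 0.388), fell 4.08-fold at clonal expansion and fell 37.0-fold from first stage to last (log2FC -5.21 ± 0.26, adjusted p = 6.98e-08). Myh9, the heavy chain of non-muscle myosin IIA, changed less, with 280738 and 284233 in proliferating, 193734 and 200017 in quiescent, 177134 and 158939 in expanding and 73227 and 77019 in differentiated cells. It fell at quiescence and at differentiation but was not called at clonal expansion (adjusted p = 0.0947, or -0.47 and -0.59 on the log2 scale and called lower with libraries scaled to the same total and with quantile normalization).

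Genes that govern filament assembly also split. Lmod1, a leiomodin that starts new filaments in smooth muscle, was at 1831 and 1469 in proliferating, 1172 and 1439.7 in quiescent, 158 and 112 in expanding and 398 and 379 in differentiated cells. It fell 9.7-fold at clonal expansion and rose 2.9-fold after it (log2FC 1.54 ± 0.20, adjusted p = 6.56e-05), the larger of the 2 rises of that step, and stayed below both proliferating libraries. Cfl1, cofilin, which severs filaments, was at 151048 and 177080.0 in proliferating, 131109 and 104402 in quiescent, 181578 and 167146 in expanding and 78020.2 and 78758 in differentiated cells. Pfn1, profilin, which feeds actin subunits to growing ends, was at 90463 and 97939.6 in proliferating, 84482 and 61805 in quiescent, 100980.0 and 93789 in expanding and 37296 and 42968 in differentiated cells. Both rose at clonal expansion (log2FC 0.57 and 0.43) to levels that overlapped those of proliferating cells, and both fell at differentiation. The rise of Cfl1 was not called with quantile normalization (0.24), and that of Pfn1 was lost in 8 of 17 settings, among them the same total (0.19), quantiles (0.066), without quiescence 2 (0.20) and without either library of clonal expansion (0.38 and 0.48).

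The alpha-actinins, which tie filaments into bundles, stood out at clonal expansion, and Actn1 had the largest rise of the 34 genes. Actn1 (gene ID 109711, chromosome 12, 81268529 to 81361358 in mm9) was at 62323 and 67290.4 in proliferating, 36412 and 36546 in quiescent, 135879 and 130970.0 in expanding and 12145 and 12165 in differentiated cells. Its 2 libraries at clonal expansion were above every other library, and it rose 3.66-fold (log2FC 1.87 ± 0.094, adjusted p = 2.43e-07) and then fell to below both proliferating libraries (log2FC -3.46 ± 0.094, adjusted p = 1.9e-09). Actn4 was at 72373 and 85542 in proliferating, 47597 and 48239.9 in quiescent, 100515 and 99748 in expanding and 41203 and 44688 in differentiated cells, with a rise of 2.09-fold and a fall of 2.33-fold. The rises of Actn1, Actn4, Tagln2 and Tpm4 were called in all 17 alternative settings of that comparison. Flna, filamin A, which joins filaments into a network and to the membrane, was at 437786 and 440889 in proliferating, 252988 and 298082 in quiescent, 281276 and 284906 in expanding and 75314 and 90045 in differentiated cells. It fell at quiescence (-0.67 and not called without proliferation 2), overlapped between quiescence and clonal expansion and fell 3.44-fold at differentiation. Its log2FC at clonal expansion changed sign with the scaling (0.04, or -0.19 with the same total and -0.41, called lower, with quantiles). The adaptors of the Z-line and stress fibre were Pdlim5, at 22576 and 22536 in proliferating, 16551 and 18667 in quiescent, 9004 and 8184 in expanding and 9227 and 9859.7 in differentiated cells, and Pdlim7, at 10314 and 10442 in proliferating, 8546 and 8176 in quiescent, 6164 and 5465 in expanding and 3481 and 3454 in differentiated cells. Both fell at clonal expansion (log2FC -1.03 and -0.53). After that stage Pdlim7 fell again (log2FC -0.74) and Pdlim5 was not called (log2FC 0.15, adjusted p = 0.2). Their falls at quiescence were lost in 8 and 11 of 17 settings.

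The 3 focal adhesion genes fell at clonal expansion and then parted. Zyx, zyxin, which gathers where fibres are under tension, was at 71402 and 82189 in proliferating, 58149 and 51385 in quiescent, 41712 and 35883 in expanding and 11919 and 12561 in differentiated cells. Tln1, talin, which links integrins to actin, was at 121266 and 124859 in proliferating, 92429 and 97049.7 in quiescent, 64482 and 63161 in expanding and 36164 and 41176 in differentiated cells. Both fell at each of the 3 steps, though at quiescence neither was called without proliferation 2 (-0.39 and -0.36). Vcl, vinculin, which strengthens the link of talin to actin, was at 80921 and 83489 in proliferating, 50318 and 59767 in quiescent, 40220.1 and 36158 in expanding and 50176 and 54453 in differentiated cells. It was lowest at clonal expansion and rose to differentiation (log2FC 0.45 ± 0.12, adjusted p = 0.00517), though not called without clonal expansion 2 (0.38). Its total fall from proliferation was 1 of the 3 smallest of the group (log2FC -0.65).

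The ratio of related genes within a library, which needs no scaling between libraries, shows how these relatives parted. These pairs were chosen after the values were seen, the ratios are of pseudo-counts rather than molecules, and they were not tested. Acta2 over Actb was 0.515 and 0.507 in proliferating, 0.376 and 0.396 in quiescent, 0.19 and 0.251 in expanding and 0.0139 and 0.0192 in differentiated cells, lower at each stage in turn. Tagln over Tagln2 was 0.312 and 0.393 in proliferating, 0.16 and 0.162 in quiescent, 0.0757 and 0.0971 in expanding and 0.0634 and 0.0776 in differentiated cells, with separate ranges at the first 3 stages and an overlap of the last 2. Tpm1 over Tpm4 was 1.58 and 1.24 in proliferating, 2.56 and 2.45 in quiescent, 0.268 and 0.256 in expanding and 0.353 and 0.405 in differentiated cells. It was highest at quiescence and lowest at clonal expansion, above 1 in the 4 libraries before the cocktail and below 1 in the 4 after it. Actn1 over Actn4 was 0.861 and 0.787 in proliferating, 0.765 and 0.758 in quiescent, 1.35 and 1.31 in expanding and 0.295 and 0.272 in differentiated cells, above 1 in the 2 libraries of clonal expansion and below 1 in the other 6.

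**Figure D4:**
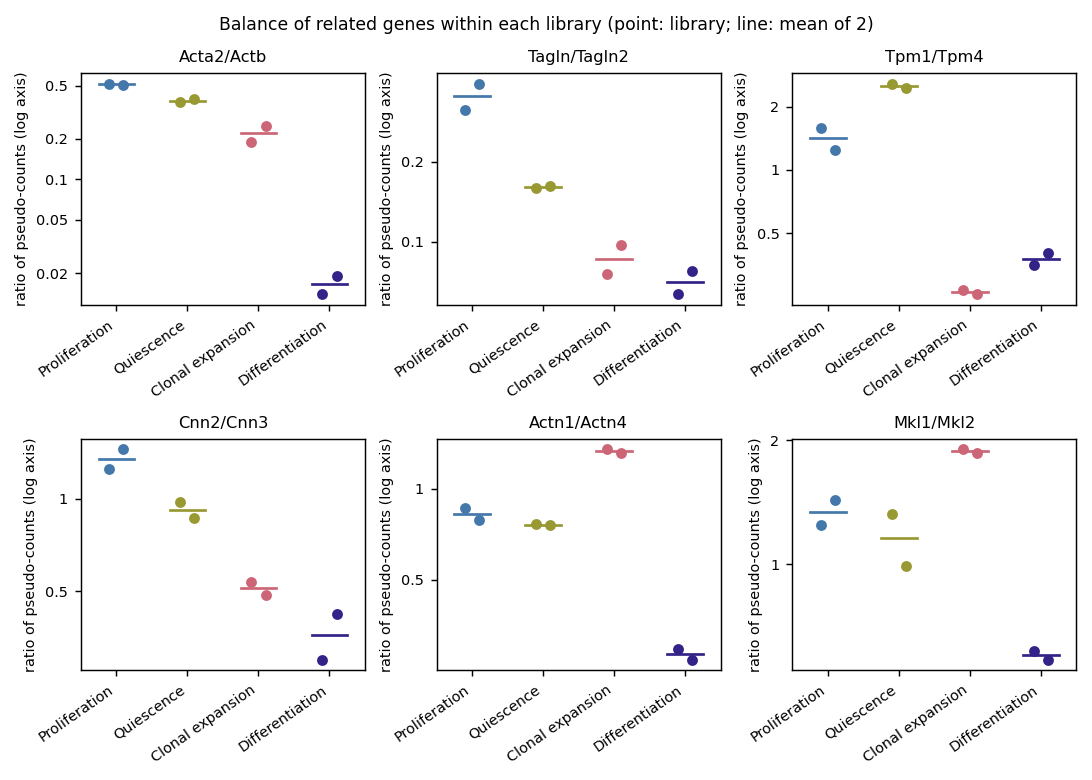
Ratio of the pseudo-counts of 6 pairs of related genes (vertical log axis) in each library (points) by stage, with the mean of the 2 libraries as a line. Tpm1/Tpm4 drops between quiescence and clonal expansion from 2.56 and 2.45 to 0.268 and 0.256, and Actn1/Actn4 peaks at clonal expansion.

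The total falls of the transcription factor and its coactivators were smaller than the median of the 34 genes, with log2FC -1.67 for Srf, -1.70 for Mkl1 and -0.55 for Mkl2. Srf (gene ID 20807, chromosome 17, 46683788 to 46693111 in mm9) was at 13956 and 17359 in proliferating, 10861 and 13058 in quiescent, 10268 and 9709 in expanding and 4631 and 5166 in differentiated cells. It was not called at quiescence (adjusted p = 0.062) or clonal expansion (adjusted p = 0.115) and fell 2.04-fold after it (log2FC -1.03 ± 0.13, adjusted p = 5.62e-05). The first 2 results were near the threshold, and each became a called fall in 4 and 3 of 17 settings (adjusted p = 0.0406 and 0.00753 with libraries scaled to the same total). Mkl1 was at 15691 and 16788 in proliferating, 12266 and 13324 in quiescent, 15646 and 17845 in expanding and 4839 and 5126 in differentiated cells. It fell at quiescence, a call lost in 11 of 17 settings, and rose at clonal expansion, a call lost with either other scaling (0.15 and 0.10) and without clonal expansion 2 (0.29). It then fell 3.35-fold. Mkl2 was at 12625 and 11723 in proliferating, 9254 and 13478 in quiescent, 8227 and 9599.9 in expanding and 7873 and 8742 in differentiated cells. Its libraries overlapped in each consecutive pair of stages, and it was called lower at clonal expansion in 3 of 17 settings. Its fall from proliferation to differentiation (adjusted p = 0.0125) was not called with no filter on low values, without proliferation 1 (-0.50) or differentiation 1 (-0.48).

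Promoter sequence is shown because SRF binds a known motif, the CArG box, and members fell together at differentiation. RefSeq promoter windows on GRCm38.p6, 250 bases before to 50 after a start site, were matched by gene ID for 29 of the 34 genes, in 34 windows, with no entry used for Actb, Actg2, Tagln, Ctgf and Thbs1. An exact CArG box on either strand was in 5 of the 34 windows, those of Actg1, Cnn2, Myl9, Srf and Vcl, and in 1.63% of all 32851 windows. Each is printed 5′ to 3′ on the strand of the gene with the box in capitals and 10 bases on either side:
Actg1, 90 bases before the start site: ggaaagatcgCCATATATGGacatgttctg
Cnn2, 56 bases before: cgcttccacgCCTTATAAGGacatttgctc
Myl9, 161 bases before: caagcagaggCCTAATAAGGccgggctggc
Srf, 82 bases before: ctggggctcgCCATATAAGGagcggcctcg
Srf, 62 bases before: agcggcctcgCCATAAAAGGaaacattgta
Vcl, 227 bases before: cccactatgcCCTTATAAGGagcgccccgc
Srf carried 2 boxes. All 5 genes with a box fell from proliferation to differentiation, as every member did, where 33.3% of all genes fell. At clonal expansion they differed. Cnn2 and Myl9 fell 3.76-fold and 4.08-fold, Vcl fell 1.44-fold, and Actg1 (adjusted p = 0.846) and Srf were not called. Srf was called lower there in 3 of 17 settings. The 250 bases before the start sites of Cnn2 and Actg1, the pair that differed in this way, are these, again with the box in capitals, at chr10:79988350-79988599 (plus strand) and chr11:120348496-120348745 (minus strand) of GRCm38.p6:
Cnn2: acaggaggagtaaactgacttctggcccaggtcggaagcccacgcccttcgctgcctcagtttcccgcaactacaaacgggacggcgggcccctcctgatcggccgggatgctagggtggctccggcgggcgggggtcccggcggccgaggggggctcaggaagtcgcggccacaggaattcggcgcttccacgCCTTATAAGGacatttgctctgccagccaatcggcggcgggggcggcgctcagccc
Actg1: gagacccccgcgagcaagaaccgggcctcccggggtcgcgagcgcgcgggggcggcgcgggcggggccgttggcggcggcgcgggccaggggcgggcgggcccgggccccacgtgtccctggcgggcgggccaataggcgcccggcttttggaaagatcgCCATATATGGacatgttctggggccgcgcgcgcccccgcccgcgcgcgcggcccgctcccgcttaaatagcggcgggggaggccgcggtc
A match is a description of the letters and shows neither binding nor its absence elsewhere.

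Of the 5 YAP targets, 2 rose, 2 fell and 1 was not called at clonal expansion, near the 34.4% of all genes that went each way. All 5 fell afterwards, where 36.2% of all genes fell and 36.8% rose. Ctgf, a matricellular growth regulator (gene ID 14219, chromosome 10, 24315248 to 24318488 in mm9), was at 817 and 3318 in proliferating, 229 and 233 in quiescent, 598 and 639 in expanding and 9.53 and 15.4 in differentiated cells. Cyr61, its relative, was at 26862 and 105613 in proliferating, 20393 and 19781 in quiescent, 26659.5 and 26202 in expanding and 1410.4 and 1610.2 in differentiated cells. Both were far higher in the second proliferating library than in the first. Both were lowest at differentiation, with falls of 47.1-fold and 17.5-fold from clonal expansion (adjusted p = 4.5e-06 and adjusted p = 1.79e-05). Ctgf rose from quiescence to clonal expansion (log2FC 1.42 ± 0.51, adjusted p = 0.0301). That rise was not called without any 1 of the 4 libraries compared (log2FC 1.37 to 1.47) or with libraries scaled to the same total (1.18). Cyr61 was higher in both libraries of clonal expansion than at quiescence but was not called (log2FC 0.40 ± 0.46, adjusted p = 0.461). It was called higher in the fits without either proliferating library (adjusted p = 0.00816 and 0.0082) at the same log2FC. Ankrd1, a muscle ankyrin repeat protein that responds to stretch, was at 1001 and 1890.3 in proliferating, 538 and 497 in quiescent, 29.0 and 39.4 in expanding and 12.6 and 7.25 in differentiated cells. It fell 14.9-fold at clonal expansion (log2FC -3.90 ± 0.34, adjusted p = 5.78e-06), and its total fall was the largest of the 34 (log2FC -7.02 ± 0.34, adjusted p = 6.22e-08). Thbs1, thrombospondin 1, a secreted matrix protein that activates TGF-beta, was at 195897 and 228214 in proliferating, 110212 and 140216 in quiescent, 16706 and 12703 in expanding and 6699 and 11964 in differentiated cells. It fell 8.53-fold at clonal expansion (adjusted p = 2.96e-06). Its later fall was lost in 5 of 17 settings, among them without differentiation 1 (-0.28) or clonal expansion 1 (-0.50). Amotl2, an angiomotin that binds YAP and actin and is itself a YAP target, was at 35151 and 47845 in proliferating, 31136 and 30141 in quiescent, 42751 and 41507 in expanding and 25956 and 27185 in differentiated cells. It moved least of the 5, with log2FC -0.63 from first stage to last. Its rise at clonal expansion was lost with no filter on low values, with either other scaling (0.22 and 0.16) and without clonal expansion 1 (0.44).

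**Figure D5:**
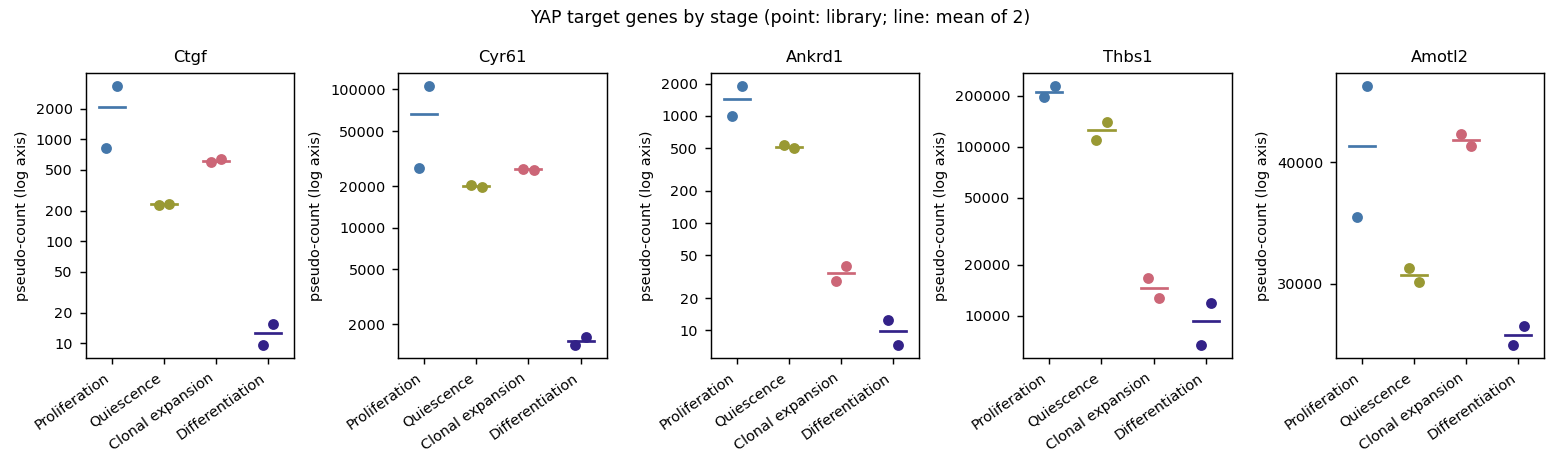
Pseudo-counts (vertical log axes, a scale for each gene) of 5 YAP target genes in each library (points) by stage, with the mean of the 2 libraries as a line. Ctgf and Cyr61 dip at quiescence and are lowest at differentiation, while Ankrd1 and Thbs1 drop at clonal expansion.

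TEAD factors, through which YAP acts, bind the letters GGAATG or, on the other strand, CATTCC. These stood in 13 of the 34 windows, those of 13 genes, and in 14.7% of all windows. Of the YAP targets with a window they were in Cyr61, Ankrd1 and Amotl2, shown because these 3 took different courses at clonal expansion, with the motif in capitals:
Cyr61, 103 bases before the start site: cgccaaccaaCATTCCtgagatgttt
Ankrd1, 210 bases before: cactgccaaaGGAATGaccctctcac
Ankrd1, 123 bases before: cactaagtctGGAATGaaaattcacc
Amotl2, 65 bases before: gaaactctcaCATTCCtggcatagca
Of 25 tested genes of the Hippo pathway itself, 4 rose and 2 fell at quiescence, near the shares over all genes (11.9% and 11.8%). At clonal expansion 9 rose and 12 fell, where 34.4% of all genes went each way, and only the rises were near that share. The median log2FC of the list in that step was -0.381, against -0.00615 for all genes. At differentiation against clonal expansion 5 rose and 15 fell, where 36.8% and 36.2% of all genes did. Tead4, a TEAD factor, fell at quiescence, from 1531 and 1869 to 683 and 713, and rose to 11376 and 13757 at clonal expansion (log2FC 4.16 ± 0.15, adjusted p = 6.46e-08). The other TEAD genes, named after their values were seen, did not share that rise. From quiescence to clonal expansion Tead2 went from 16129 and 14327 to 8766 and 8110, and Tead3 from 13042 and 11924.5 to 6238 and 5999. Tead1 overlapped between these stages, at 16791 and 23829 and then 15823 and 17313. Sav1, the scaffold of the Hippo kinases, rose from 10341 and 10698 to 35407 and 34775 in the same step, and Amot, an angiomotin, fell from 27818 and 38746 to 11988 and 14778. Yap1, named after its values were seen, was at 23598 and 24757 in proliferating, 26692 and 27035 in quiescent, 31759 and 31647 in expanding and 20520.1 and 19946 in differentiated cells. It fell from clonal expansion to differentiation (log2FC -0.65 ± 0.088, adjusted p = 8.26e-05).

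Of 25 other YAP targets 10 rose and 8 fell at clonal expansion, near the 34.4% of all genes that went each way. On that list 4 rose and 12 fell at quiescence, where 11.9% of all genes rose and 11.8% fell. From proliferation to differentiation 6 rose and 17 fell (median log2FC -0.929), where 34.5% of all genes rose and 33.3% fell. Edn1, endothelin 1, fell at clonal expansion from 223 and 173 to 20.7 and 23.7, and F3, tissue factor, from 52619.5 and 49400.4 to 8964 and 6839.6. Inhba, an activin subunit, fell from 4170.4 and 4764 to 159 and 135 at differentiation (log2FC -4.92 ± 0.23, adjusted p = 4.79e-08).

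Further genes of the cytoskeleton, on lists that hold none of the 34, mostly fell at differentiation too. These lists were also chosen with earlier results of these data known, so they are no independent check on the members. Of 34 tested focal adhesion and stress fibre genes, 4 rose and 26 fell against proliferation, with a median log2FC of -1.29, where 34.5% of all genes rose and 33.3% fell. At quiescence 2 of them rose, 10 fell and 22 were not called (median log2FC -0.164), where 11.9% of all genes rose and 11.8% fell. At clonal expansion 7 of them rose and 18 fell, where 34.4% of all genes went each way. Itga5, the fibronectin receptor subunit, rose in that step from 43243 and 42676 to 208837 and 192576 (log2FC 2.22 ± 0.10, adjusted p = 1.63e-07) and then fell to 22164 and 20963. Nexn, nexilin, an actin-binding protein of muscle, fell from 868 and 1133 to 157 and 126. Of 36 genes of filament assembly and turnover, 13 rose and 6 fell at clonal expansion, the rises near the 34.4% of all genes. Against clonal expansion, 3 rose and 23 fell at differentiation, where 36.8% of all genes rose and 36.2% fell. Limk1, the kinase that inactivates cofilin, rose at clonal expansion from 5464 and 4944 to 31072 and 30228 (log2FC 2.56 ± 0.16, adjusted p = 6.88e-07). Ezr, ezrin, which ties cortical actin to the membrane, rose in that step from 10726 and 8933 to 28586 and 25717 and then fell to 3843 and 4337. Limk1 was at 29565 and 20190.5 at differentiation, a rise against proliferation (log2FC 1.83 ± 0.16, adjusted p = 3.12e-06). Pdlim4 and Lims2, of the focal adhesion list, also rose in that comparison (log2FC 4.55 and 1.90).

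Not all smooth muscle and contractile genes followed Acta2 down. Of 20 myosin, tropomyosin and contractile regulator genes, 3 rose and 13 fell from proliferation to differentiation (median log2FC -0.682), where 34.5% of all genes rose and 33.3% fell. In the single steps, 2 rose and 8 fell at clonal expansion and 5 rose and 8 fell after it. Over all genes 34.4% went each way at clonal expansion, and 36.8% rose and 36.2% fell after it. The 8 falls in each step were near these shares. Myh11, the smooth muscle myosin heavy chain, was at 217 and 119 in proliferating, 642 and 509.8 in quiescent, 71.5 and 63.3 in expanding and 5291 and 4747 in differentiated cells. It rose from clonal expansion to differentiation (log2FC 6.20 ± 0.26, adjusted p = 2.22e-08). Mylk, the kinase of the myosin light chain, fell at clonal expansion from 10375 and 11511 to 1202 and 927 and rose to 13411 and 14599 (log2FC 3.73 ± 0.16, adjusted p = 2.44e-08). Des, desmin, the intermediate filament protein of muscle, was at 1321 and 1037 in proliferating, 837 and 591 in quiescent, 230.1 and 136 in expanding and 5571 and 4992 in differentiated cells. Its libraries at differentiation lay above all others (log2FC 4.89 ± 0.25, adjusted p = 8.46e-08). Rhob, a small GTPase of endosomes and stress fibres, rose from 11347 and 9226 to 43408 and 40650.3 and stayed high, at 54419 and 60617. From clonal expansion to differentiation Lmod1 rose (log2FC 1.54), as Myh11, Mylk and Des did, while Acta2, Actg2, Tagln and Myl9 fell. From proliferation to differentiation, however, Lmod1 fell (log2FC -2.08 ± 0.20, adjusted p = 8.485e-06). Of 25 tested SRF targets and cofactors, 3 rose and 16 fell from proliferation to differentiation (median log2FC -1.33), where 34.5% of all genes rose and 33.3% fell. At clonal expansion 4 rose and 14 fell, where 34.4% of all genes went each way. After it 9 rose and 10 fell, near the 36.8% and 36.2% of all genes. Filip1l fell from 26312 and 30081 at proliferation to 1086 and 1022 at differentiation (log2FC -4.74 ± 0.11, adjusted p = 8.36e-10), and Dmpk, a muscle kinase, rose from 2219 and 1935 to 7859.8 and 8240.4.

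Markers of cell types did not all move in the same direction as the members, and their part in the results was not tested. From proliferation to quiescence 4 fibroblast markers rose and 0 fell, and 24 members fell and 1 rose, where 11.9% of all genes rose and 11.8% fell. All 7 fibroblast markers were tested, and 5 fell and 1 rose from proliferation to differentiation, where 33.3% of all genes fell and 34.5% rose. Their summed level was 3080260 to 3413930 in proliferating, 5983710 to 6419360 in quiescent, 2914560 to 3306640 in expanding and 1791200 to 2143400 in differentiated cells. Most of that sum came from Col1a1, Col1a2 and Col3a1. All 8 adipocyte markers rose from proliferation to differentiation. They summed to 2857 to 2913, 3374 to 4443, 3576 to 3931 and 2736950 to 2795050 in the same order. Of the 9 smooth muscle and pericyte markers, which include the members Lmod1 and Actg2, 3 rose and 5 fell from proliferation to differentiation, and their sum was 23123 to 24265, 18209 to 18757, 12043 to 12290.3 and 35639 to 37995 in the order of the stages. Mcam, an adhesion molecule of pericytes and endothelium, made up 20020.2 and 23510.4 of the last sums and 2006 and 2418 of the first. Skeletal and cardiac muscle markers summed to 191 to 903 in all libraries, with Myod1 at 0 to 2.05 and Myog at 0 to 2.06. Sums were 148 to 475 for endothelium and 333 to 609 for macrophages and blood, where Ptprc was at 0 to 2.73. For epithelium they were 16.8 to 123 before differentiation and 956 to 1985 at it, with Epcam below 1 in all libraries.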

How the data were processed

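Total RNA of 3T3-L1 cells was used for 8 TruSeq libraries without strand information, read for 100 nt from 1 end, per the labels' protocols. The authors deposited 1 signal per gene and library: edgeR pseudo-counts with relative log expression factors, per the name of the deposited table. The submitters' processing notes name CASAVA 1.8.2, edgeR and mm9; the aligner and gene models are not given in the sources used here. Low values lay within 0.1 of whole multiples of a best step for only 46.3% to 59.4% of values per library. Whole reads were therefore not recovered, the depth in reads is unknown and no count model was used.

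Genes with a mean of at least 10 were kept. limma 3.58.1 in R 4.3.3 modelled stage on log2(value + 1) with all 8 libraries and a mean-variance trend, on 4 residual and 9.78 total degrees of freedom. Tests were two-sided, adjusted by Benjamini-Hochberg over all genes tested. The fit was tested on simulated data. Transcript lengths are those of the longest coding transcript in GENCODE M21. The members and lists were chosen with earlier results of these data known. All members may be named, and of each other list up to 2 genes per comparison and direction with the largest called change and no overlap of libraries.

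Deviations of same-numbered libraries from their stage means had r = 0.354 between quiescence and clonal expansion, 0.134 between quiescence and differentiation, and 0.0126 to 0.0717 otherwise. The number was not treated as a pairing. Alternatives, 17 per comparison, were other pseudocounts, filters, scalings and fits, a replicate block and leaving out each library.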

Additional observations from a re-analysis of the deposited data

How the results depend on the processing

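Of the 34 falls from proliferation to differentiation, 33 were called in every alternative that tested the gene. Mkl2 was the exception, and Cnn1 was not tested with a minimum mean of 100. Leaving out 1 library gave 33 to 34 falls there, 28 to 29 falls and 1 to 2 rises from clonal expansion to differentiation (1 rise without clonal expansion 2), 16 to 17 falls and 6 to 10 rises at clonal expansion, and 5 to 21 falls and 0 to 1 rises at quiescence, where 1304 to 3536 of all genes were called. The 5 falls and 0 rises at quiescence were those without proliferation 2. With no filter on low values 3 members fell at quiescence and 1757 genes were called. With only the 4 libraries of those stages it was 13 falls, 0 rises and 1942 genes, and with no trend 14 falls. At clonal expansion 5 members rose with the same total per library and 5 with quantile normalization. The replicate block gave 26 falls at quiescence, where it added Srf (adjusted p = 0.0301) and Cyr61 (0.0282), and changed no other call of a member.

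Signs turned in genes that were not called in the reported fit. At quiescence these were Cnn2 (-0.25 to 0.0040 leaving out 1 library, the highest without quiescence 2) and Mkl2 (-0.39 to 0.15, the highest without quiescence 1). At clonal expansion they were Actg2 (-0.46 to 0.073, the highest without clonal expansion 1), Actb (-0.056 with the same total, -0.27 with quantiles), Actg1 (-0.19 to 0.11, above 0 without quiescence 1, and 0.097 without clonal expansion 2), Tagln (-0.050 with the same total) and Flna (-0.19 with the same total, -0.41 with quantiles, and -0.074 without quiescence 1 to 0.16). From clonal expansion to differentiation they were Cnn1 (-0.53 with quantiles) and Mkl2 (-0.21 to 0.012, above 0 without clonal expansion 2). The cause was not tested. The depth in reads is unknown, so no counting error could be given.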
